A study of Mus musculus with 6 samples.

Results

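The genes described here are 10 mouse genes of mast cell and basophil granules, out of 55401 genes in the deposited FPKM table (FPKM, fragments per kilobase of exon, scaled to the number of mapped fragments). They encode 8 proteases (Cpa3, Cma1, Mcpt4, Mcpt8, Tpsab1, Tpsb2, Prss34 and Gzmb), the core protein of the granule proteoglycan (Srgn) and the enzyme that makes histamine (Hdc). The set was picked on measured level, after Cpa3 and Srgn had been seen to be high in these libraries, so the levels of those genes are a description and are not tested. All 10 were found in the table by Ensembl identifier.

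RNA-seq was performed on cultures labelled female germline stem cells (FGSCs), from C57BL/6 mice and kept for more than 20 passages. The control group was 3 untreated libraries and the other group was 3 libraries from cells given 1 μM metformin, an antidiabetic biguanide, for 24 h. Both groups shared one growth condition, a layer of STO cells (a mouse embryonic fibroblast line made unable to divide) under medium with serum, leukemia inhibitory factor, EGF, bFGF and GDNF. No source used here says whether the 3 libraries of a group came from separate cultures, so p-values measure only the spread between these libraries, which may be technical. Each library held an estimated 13400000 to 14000000 mapped fragments.

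Mast cells and basophils are blood-lineage cells that store preformed mediators in secretory granules and release them when the IgE receptor is cross-linked. In the granule, positively charged proteases and amines such as histamine are packed on the sulphated sugar chains of serglycin. Which proteases a granule holds differs between types of mast cell and between mast cells and basophils, and granzyme B and serglycin are also well known from cytotoxic lymphocytes.

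Of the 10 genes, 3 reached 1 FPKM or more as the mean of the 6 libraries, namely Cpa3, Srgn and Gzmb. Mcpt8 had a lower mean but was above 0 in all 6 libraries, Cma1 and Hdc had values above 0 in only 2 and 3 libraries, and Mcpt4, Tpsab1, Tpsb2 and Prss34 were listed at 0 in all 6 libraries. The order Cpa3, Srgn, Gzmb, Mcpt8 was the same in every library, without overlap between neighbours. Below Mcpt8 the values of Cma1 and Hdc overlapped each other and 0. Cpa3, Srgn and Gzmb were tested for a difference between metformin and control in the fit across all genes, and 0 of these 3 passed (limma on log2(FPKM + 1), adjusted p of at least 0.369), against 3 of 10661 tested genes (0.0281%). The other 7 genes lay below the filter of that fit.

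**Figure D1:**
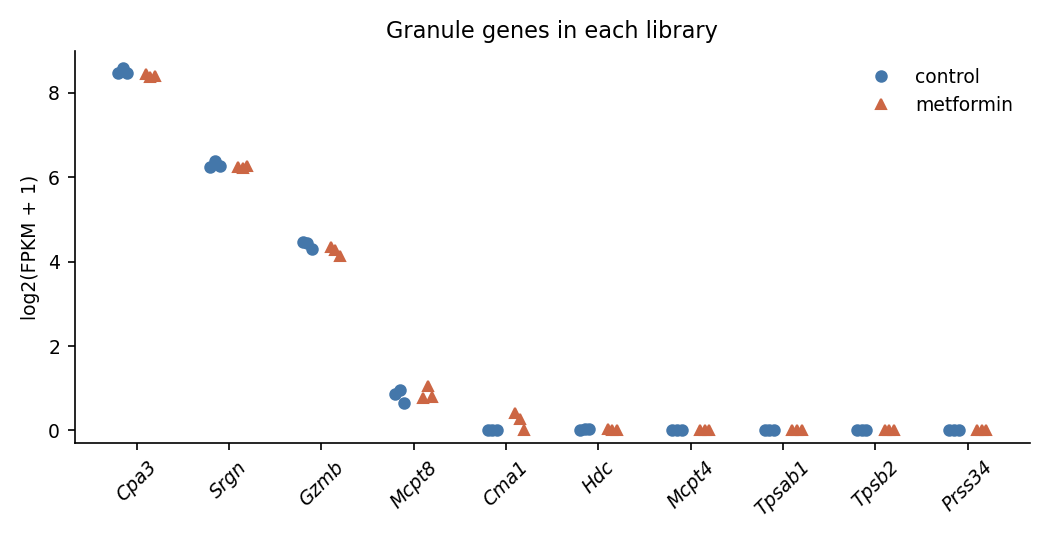
Level of each of the 10 granule genes in each library, as log2(FPKM + 1). Circles are the 3 control libraries and triangles the 3 metformin libraries. Cpa3, Srgn and Gzmb stand apart from the other 7 genes, and 4 genes lie at 0 in all 6 libraries.

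The promoters of 4 of these genes are shown because they belong to genes at opposite ends of this range, Cpa3 and Gzmb with a mean of at least 1 FPKM, and Cma1 and Mcpt4, which lie in the same gene cluster as Gzmb and are near or at 0. Each sequence is the 250 bases before the RefSeq transcription start (GRCm38.p6), read 5′ to 3′ on the strand of the gene. They lie at chr3:20242182-20242431 (minus strand) for Cpa3, chr14:56262335-56262584 (minus) for Gzmb, chr14:55944676-55944925 (minus) for Cma1 and chr14:56062311-56062560 (minus) for Mcpt4. Capitals mark each GATA, on either strand, that has A or T before it and A or G after it, together with those flanking letters, the word that GATA factors are known to bind.
Cpa3: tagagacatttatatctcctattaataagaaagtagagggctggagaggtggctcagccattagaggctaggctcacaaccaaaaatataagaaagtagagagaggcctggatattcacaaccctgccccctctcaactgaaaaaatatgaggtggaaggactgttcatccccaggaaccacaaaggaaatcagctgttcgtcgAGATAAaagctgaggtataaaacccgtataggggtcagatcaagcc
Gzmb: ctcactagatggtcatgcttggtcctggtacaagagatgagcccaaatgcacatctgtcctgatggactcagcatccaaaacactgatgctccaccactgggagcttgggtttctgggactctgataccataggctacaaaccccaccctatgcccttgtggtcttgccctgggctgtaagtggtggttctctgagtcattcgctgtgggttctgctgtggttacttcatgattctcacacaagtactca
Cma1: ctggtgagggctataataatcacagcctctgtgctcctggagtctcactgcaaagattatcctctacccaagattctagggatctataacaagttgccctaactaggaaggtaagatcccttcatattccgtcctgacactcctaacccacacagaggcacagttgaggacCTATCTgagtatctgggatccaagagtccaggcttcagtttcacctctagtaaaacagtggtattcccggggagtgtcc
Mcpt4: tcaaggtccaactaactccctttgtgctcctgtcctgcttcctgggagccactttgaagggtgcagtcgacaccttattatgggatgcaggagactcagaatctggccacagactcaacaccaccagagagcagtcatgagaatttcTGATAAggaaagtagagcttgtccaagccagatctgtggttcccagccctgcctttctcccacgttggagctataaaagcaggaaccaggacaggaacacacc
The word was found in Cpa3, the highest gene of the set, and also in Mcpt4, a gene at 0, and was absent from this window of Gzmb. Of the 8 members with an entry in the RefSeq promoter table (Tpsab1 and Tpsb2 have none), 5 held such a word, against 26.5% of all 32851 promoters of this length. The first base of the word lay 46 bases before the start in Cpa3, 103 in Mcpt4, 79 in Cma1, 31 in Prss34 and 221 in Hdc. Apart from Cpa3 these are genes at or near 0, and Srgn, Gzmb and Mcpt8, which were above 0 in all 6 libraries, held no such word. The word TATAAA, read on the strand of the gene only and overlapping none of the marked words, was found 31 bases before the start in Cpa3 and 32 in Mcpt4, at 98 in 1 of the 2 starts of Srgn, and in 7.6% of all promoters. These matches are a description of the letters and not of binding.

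Cpa3 (ENSMUSG00000001865, chr3:20215620-20242181, minus strand, GRCm38) encodes carboxypeptidase A3, a zinc metalloprotease that trims the C-terminal ends of peptides in mast cell granules. Its values were 355.59, 385.58 and 357.15 FPKM in the control libraries and 348.08, 329.6 and 335.89 FPKM with metformin. Every metformin library lay below every control library, so the groups did not overlap. The means were 366 ± 16.9 FPKM in control and 338 ± 9.40 FPKM with metformin (SD, n = 3 each), a difference of -7.72%. On the log2(FPKM + 1) scale the fold change was -0.11 (SE 0.04, 95% interval -0.20 to -0.03), with a limma adjusted p of 0.369. An exact two-sided permutation test gave p = 0.1 (n = 3 each), the smallest that 3 libraries against 3 can give. Groups of this size that do not overlap always give this p, so it adds nothing to the lack of overlap. The difference did not pass the adjusted threshold of the limma fit, and Cpa3 ranked 429 of 10661 tested genes by unadjusted p.

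By level Cpa3 ranked 102 of all 55401 genes over the 6 libraries, and between 91 and 112 within single libraries. The values rested on an estimated 6700 to 7726 fragments per library. A small unnamed gene on the same strand overlaps 70 bp of Cpa3 and had a mean of 24.6 FPKM, and how fragments in that stretch were assigned is not given in the sources used here. In RNA from whole cultures, fewer cells of a type and less RNA per cell cannot be told apart.

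Srgn (ENSMUSG00000020077, chr10:62493833-62527451, minus strand) encodes serglycin, the granule proteoglycan that carries the chains on which proteases and amines are stored. Its values were 74.23, 82.87 and 75.75 FPKM in control and 74.79, 73.81 and 76.34 FPKM with metformin. The groups overlapped, and control replicate 2 alone lay above all 3 metformin libraries by more than 6 FPKM. The means were 77.6 ± 4.61 and 75.0 ± 1.28 FPKM (SD, n = 3 each). The log2 fold change was -0.05 (SE 0.04, 95% interval -0.15 to 0.05), with a limma adjusted p of 0.714. Without control replicate 2 the log2 fold change was -0.00025. Srgn ranked 705 by level, and the level of Cpa3 was 4.40 to 4.79 times that of Srgn in single libraries.

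Gzmb (ENSMUSG00000015437, chr14:56258838-56262260, minus strand) encodes granzyme B, a serine protease that cuts after aspartate. It had 21.09, 20.69 and 18.78 FPKM in control and 19.3, 18.54 and 16.55 FPKM with metformin. The lowest control library lay below the highest metformin library, so the groups overlapped. The means were 20.2 ± 1.23 and 18.1 ± 1.42 FPKM (SD, n = 3 each). The log2 fold change was -0.15 (SE 0.06, 95% interval -0.30 to 0.0038) with a limma adjusted p of 0.471. The gene ranked 3075 by level, and Cpa3 stood 16.9 to 20.3 times higher than Gzmb in the same library.

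Mcpt8 (ENSMUSG00000022157, chr14:56082166-56085273, minus strand) encodes mast cell protease 8, a granzyme-like serine protease best known as a basophil marker in mice. It had 0.82, 0.94 and 0.57 FPKM in control and 0.71, 1.08 and 0.73 FPKM with metformin. The highest value was in a metformin library and the lowest in a control library, and the groups overlapped. The means were 0.777 ± 0.189 and 0.840 ± 0.208 FPKM (SD, n = 3 each), and an exact two-sided permutation test gave p = 0.7 (n = 3 each). These values correspond to an estimated 7 to 13 fragments per library, so a difference as small as those of Cpa3 or Gzmb was not detectable at this depth.

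**Figure D2:**
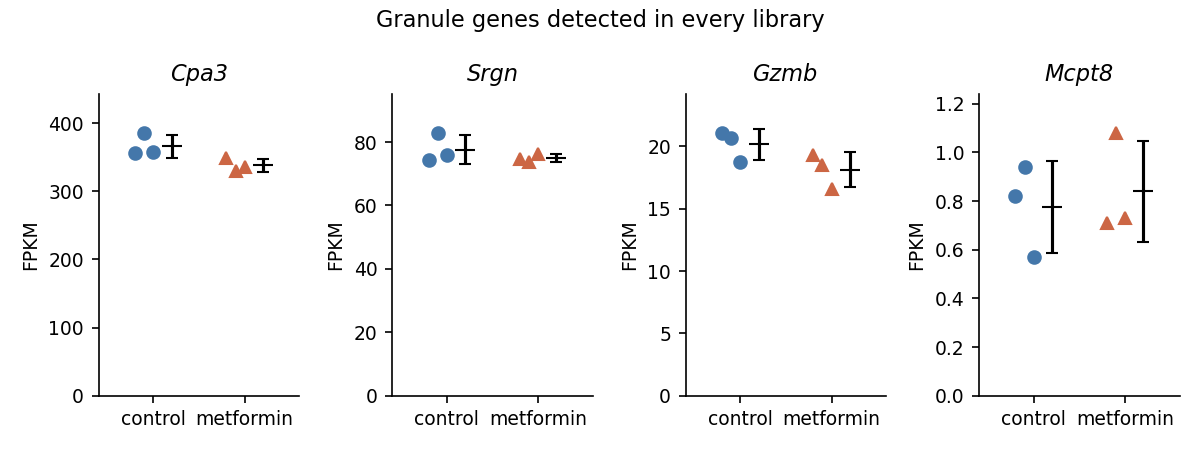
FPKM of the 4 granule genes found in all 6 libraries, on separate axes that start at 0. Circles and triangles are single libraries, and bars beside them give the mean and SD of 3. For Cpa3 every metformin library lies below every control library, with means of 338 and 366 FPKM, and for the other 3 genes the groups overlap.

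Cma1 (ENSMUSG00000022225, chr14:55941451-55944675, minus strand) encodes a chymase-family serine protease typical of connective tissue mast cells. It was listed at 0 in the 3 control libraries and at 0.33, 0.2 and 0 FPKM with metformin. The values above 0 correspond to an estimated 4.96 and 3.01 fragments. A count of 0 allows up to 3 fragments, which is 0.200 to 0.208 FPKM for this gene, a limit that covers counting error only. An exact two-sided permutation test gave p = 0.4 (n = 3 each), and no fold is given at these levels.

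Hdc (ENSMUSG00000027360, chr2:126593667-126619299, minus strand) encodes histidine decarboxylase, the only enzyme known to make histamine in mammals. It had 0, 0.02 and 0.02 FPKM in control and 0.03, 0 and 0 FPKM with metformin. Each listed value lay under the level of 3 fragments, 0.0335 to 0.0350 FPKM, but FPKM was given to 2 decimals, so 0.03 can stand for 3 fragments. The groups overlapped. Hdc thus rested on an estimated 3 fragments or fewer per library, although it is one of the transcripts that define mast cells and basophils.

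Mcpt4 (ENSMUSG00000061068, chr14:56059629-56062313, minus strand), a chymase of connective tissue mast cells, was listed at 0 in all 6 libraries, which allows up to 0.216 to 0.226 FPKM. The tryptases Tpsab1 (ENSMUSG00000024173, chr17:25343245-25345562, minus strand) and Tpsb2 (ENSMUSG00000033825, chr17:25366305-25369098, plus strand), trypsin-like proteases that form heparin-bound tetramers, were at 0 in all 6 libraries too. So was Prss34 (ENSMUSG00000056399, chr17:25298394-25300165, plus strand), a related protease of basophils and mucosal mast cells. The limits that a count of 0 allows were 0.102 to 0.107 FPKM for Tpsab1, 0.192 to 0.200 for Tpsb2 and 0.176 to 0.184 for Prss34. Set against those limits in each library, the level of Cpa3 was at least 1523-fold higher than Mcpt4, 3222-fold higher than Tpsab1, 1718-fold higher than Tpsb2 and 1870-fold higher than Prss34.

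The zeros were examined for loss of shared sequence. Windows of 50 bases from the coding transcripts (GENCODE M1) were all unique to the gene for 9 of the 10 members. For Mcpt4 93.8% were unique, with the other windows shared with Cma2 and Mcpt9, and 99.9% at 100 bases. The windows were compared with other coding transcripts only, not with pseudogenes or the rest of the genome. Of 24 genes that nearly every cell uses, 0 were listed at 0 in any library. Their means ran from 4.55 FPKM for Tbp to 4487 FPKM for Eef1a1. Rps18, Ppia and Gapdh, which have many processed copies in the genome, had means of 6.15, 7.83 and 10.1 FPKM, against 979 FPKM for Actb and 852 FPKM for Rplp0. Level was not compared with processed copies over the 24 genes. Whether sequence shared with such copies lowered any granule gene was not tested.

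The serine proteases of the set lie in 2 gene clusters. In the cluster on chromosome 14, from Cma1 to Gzmb (55941451 to 56262260), 15 chymase, cathepsin G and granzyme genes were measured, of which 2 had a mean of at least 1 FPKM and 6 were at 0 throughout. Ctsg, encoding cathepsin G, had 3.83, 5.54 and 4.02 FPKM in control and 4.41, 5.4 and 5.89 FPKM with metformin, and the groups overlapped (log2 fold change 0.20, limma adjusted p 0.631). Ctsg lies next to Mcpt8 and Gzmb lies at the far end, with Gzme, Gzmd, Gzmn and Gzmf at 0 between them. Mcpt2, a chymase of mucosal mast cells, had a mean of 0.148 FPKM over the 6 libraries. In the cluster on chromosome 17, from Prss34 to Tpsg1 (25298394 to 25374442), all 6 tryptase-family genes were at 0 in all 6 libraries.

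**Figure D3:**
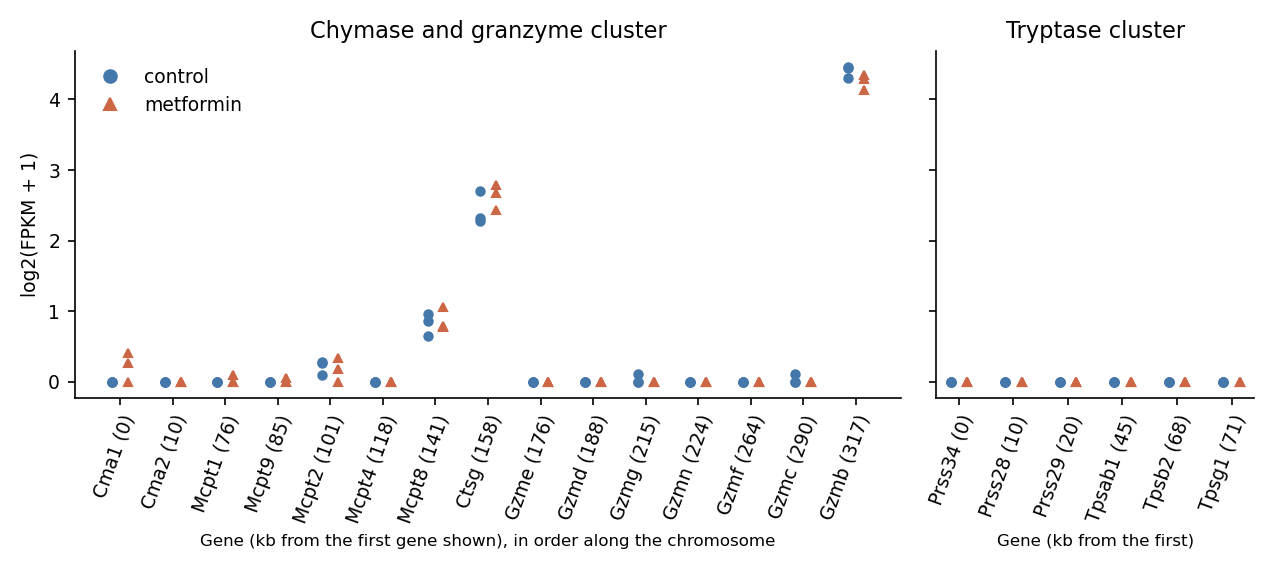
Levels of the protease genes in their order along chromosome 14 (left) and chromosome 17 (right), as log2(FPKM + 1), with the distance of each gene from the first in kb in brackets. Circles are control and triangles metformin libraries. On the left only Ctsg and Gzmb exceed a mean of 1 FPKM, and on the right all 6 genes are at 0.

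The list of protease neighbours outside the 10 genes held 18 genes, and Ctsg was the only one tested. Of the rest, 9 were at 0 in all 6 libraries, and the highest after Ctsg were Mcpt2, Prss41 (0.0317 FPKM) and Prss22 (0.0167 FPKM).

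The enzymes that build and sulphate the sugar chains of serglycin were broadly present. Of 33 genes 24 had a mean of at least 1 FPKM and 14 at least 10 FPKM. The highest was Ndst2, the N-deacetylase and N-sulphotransferase needed for mast cell heparin, with 71.4 ± 0.314 FPKM in control and 74.1 ± 1.49 FPKM with metformin (SD, n = 3 each). It was followed by Hs6st1 (heparan 6-O-sulphation) with a mean over the 6 libraries of 57.7 FPKM, Chst12 (chondroitin 4-O-sulphation) with 29.5 FPKM and Chsy1 (chondroitin chain polymerisation) with 27.2 FPKM. Hs3st1, Chsy3, Chst3, Chst7 and Chst13 were at 0 in all 6 libraries. The smallest unadjusted p of the list was that of Csgalnact2, which starts chondroitin chains, at 16.3 ± 0.465 FPKM in control and 15.1 ± 0.555 FPKM with metformin (SD, n = 3 each; log2 fold change -0.10, limma adjusted p 0.417). The median log2 fold change of the 24 genes was 0.01, with 14 above 0 and 10 below.

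Among genes that move, break down or sense histamine, only Slc18a2 was above 1 FPKM. It encodes the vesicular monoamine transporter that loads histamine and serotonin into granules, and had 28.0 ± 0.283 FPKM in control and 28.0 ± 0.512 FPKM with metformin (SD, n = 3 each; limma adjusted p 0.993). The histamine receptors Hrh2 (0.152 FPKM) and Hrh4 (0.0217 FPKM) and the related transporter Slc18a1 (0.035 FPKM) were lower, as means over the 6 libraries. Hnmt and Aoc1, the main histamine-degrading enzymes, and Maob, Hrh1 and Hrh3 were at 0 in all 6 libraries. The transporter was therefore present beside an Hdc level of an estimated 3 fragments or fewer per library.

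The highest levels in the wider lists were those of proteases and inhibitors of the granule and lysosome. Of 18 genes 14 had a mean of at least 1 FPKM, and the highest were Ctsz (cathepsin Z) with 287 FPKM, Cst7 (cystatin F, an inhibitor of cysteine cathepsins) with 214 FPKM, Serpinb1a (an inhibitor of neutrophil-type serine proteases) with 132 FPKM and Serpina3g with 105 FPKM. Cst7 had the smallest unadjusted p, with 209 ± 2.53 FPKM in control and 219 ± 5.93 FPKM with metformin (SD, n = 3 each; log2 fold change 0.07, limma adjusted p 0.390). Ctsc, cathepsin C, removes the activation dipeptide of chymases and granzymes and was singled out for that role after its values were seen. It had 75.5 ± 1.40 and 73.2 ± 2.23 FPKM (SD, n = 3 each; limma adjusted p 0.619). The median log2 fold change of the 14 genes was 0.02.

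The machinery that docks and fuses granules was present through several of its parts, with 25 of 35 matched genes at a mean of at least 1 FPKM. The highest means over the 6 libraries were those of Cd63 (a tetraspanin of granule membranes, 69.2 FPKM), Vamp8 (a vesicle SNARE used in mast cell degranulation, 40.6 FPKM), Rab27b (a small GTPase of secretory granules, 33.9 FPKM) and Vamp3 (32.6 FPKM). The priming factor Unc13d had the smallest unadjusted p, with 9.02 ± 0.251 FPKM in control and 9.82 ± 0.5 FPKM with metformin (SD, n = 3 each; log2 fold change 0.11, limma adjusted p 0.450). The median log2 fold change of the 25 genes was -0.0050.

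**Figure D4:**
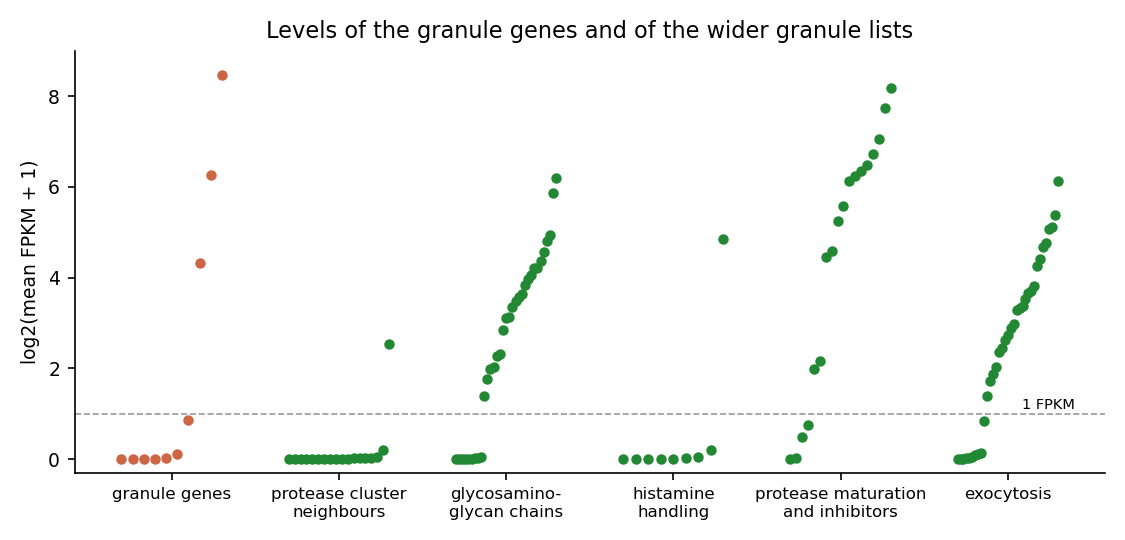
Mean level of every gene over the 6 libraries, as log2(mean FPKM + 1), for the 10 granule genes and 5 wider lists, sorted within each list. The dashed line marks 1 FPKM. In the protease neighbour and histamine lists 1 gene each lies above the line, against 24, 14 and 25 genes in the other lists.

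Against the background of all genes, none of the 3 granule genes tested passed the test of metformin against control. An adjusted p under 0.05 was reached by 3 of 10661 tested genes (0.0281%), all 3 higher with metformin (4 higher and 3 lower with no filter on low values), and by 0 of the 3 granule genes tested and 0 of the 65 genes tested in the 5 wider lists (limma). The groups did not overlap for 17.0% of all tested genes, and the lower direction alone made up 8.10%. Among the granule genes this held for 1 of 3, Cpa3. In the wider lists it held for 10 of 65 (15.4%), of which B3gat3, Ndst2, Chst12, Ctsb, Ctsd and Cst7 were higher and Csgalnact2, Ctsl, Snap23 and Lyst lower. An unadjusted p under 0.05 was reached by 10.8% of all tested genes, by Cpa3, and by B3gat3, Cst7, Unc13d and Csgalnact2 in the wider lists. The log2 fold changes of the 3 granule genes had a median of -0.11, and that of all tested genes was 0.0041. With 3 genes, no reading is made of that median.

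**Figure D5:**
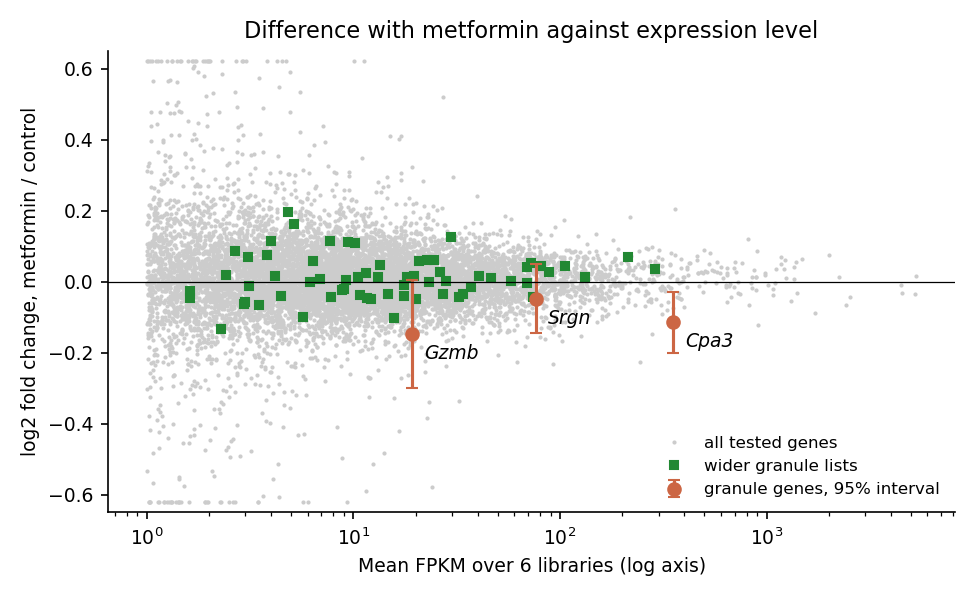
Log2 fold change (metformin over control, from log2(FPKM + 1)) against mean FPKM on a log axis, for all 10661 tested genes (grey), the wider lists (squares) and Cpa3, Srgn and Gzmb (circles with 95% intervals). The 68 genes beyond 0.62 in either direction are drawn at the edge. Cpa3 at -0.11, Srgn at -0.05 and Gzmb at -0.15 lie below 0, and only the interval of Cpa3 does not reach 0.

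The label of these genes was checked against markers of the cell types that carry them. Of 10 mast cell markers, 4 had a mean of at least 1 FPKM, led by Kit (the stem cell factor receptor, 118 FPKM) and Tph1 (the serotonin-making enzyme of mast cells, 60 FPKM). Il1rl1 (32.8 FPKM) and Fcer1g (21.9 FPKM) followed. Fcer1a, which encodes the IgE-binding chain of the receptor, and the mast cell receptors Mrgprb1 and Mrgprb2 were at 0 in all 6 libraries. The summed level of the 10 markers, most of it Kit and Tph1, was 230 to 236 FPKM in control and 231 to 238 FPKM with metformin, and these ranges overlapped. Of 6 basophil markers only Il3ra exceeded 1 FPKM (1.08 FPKM), Cd200r3 had 0.662 FPKM, and Ccr3 and Fcer1a were at 0. Their sum was 1.59 to 1.89 FPKM in control and 1.61 to 2.00 FPKM with metformin.

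For granzyme B the markers of cytotoxic lymphocytes were examined. Of 11, 0 had a mean of at least 1 FPKM. Prf1 (perforin) had 0.723 FPKM and Nkg7 0.700 FPKM, while Gzma, Gzmk, Cd3g and Ncr1 were at 0, and the sum was 1.58 to 2.42 FPKM in control and 2.26 to 2.31 FPKM with metformin. For cathepsin G, 1 of 10 neutrophil markers exceeded 1 FPKM, Ctsg itself, with Camp next at 0.127 FPKM and Elane, Ltf and S100a9 at 0. The neutrophil sum was 4 to 5.89 FPKM in control and 4.49 to 6.45 FPKM with metformin.

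Markers of other lineages were uneven within each list. Of 6 macrophage markers 2 exceeded 1 FPKM, Adgre1 with 58.3 FPKM and Cd68 with 6.16 FPKM. The 4 below 1 FPKM were Lyz2 (0.76 FPKM), Itgam (0.0133 FPKM), Csf1r (0.0117 FPKM) and Mrc1 (0.00833 FPKM), as means over the 6 libraries. The list, most of it Adgre1, summed to 64.2 to 67.5 FPKM in control and 62.1 to 67.5 FPKM with metformin. The macrophage marker Lyz2 had 0.85, 0.99 and 1.25 FPKM in control and 0.65, 0.49 and 0.33 FPKM with metformin, so that, like Cpa3, it was lower in every metformin library than in every control library. Over all marker lists this held also for Mpo (0.02 FPKM in each control library) and Col3a1 (0.06 FPKM or less), both at 0 with metformin. Lyz2, Mpo and Col3a1 were below the filter of the fit. The share of all genes without overlap was taken only above that filter, so no reading is made of them. Among megakaryocyte markers the highest were Itga2b (38.4 FPKM) and Pf4 (12.2 FPKM), and Gp1bb was at 0. Of the 6 germ cell markers 0 reached 1 FPKM, Pou5f1, Dppa3 and Dazl were at 0 in all 6 libraries, Ifitm3 had 0.662 FPKM and Ddx4 0.0233 FPKM, so the defining markers of the labelled cell type were at or near 0. Their sum was 0.48 to 1.38 FPKM in control and 0.33 to 0.93 FPKM with metformin. Of 5 ovarian somatic cell markers only Star exceeded 1 FPKM (1.89 FPKM), Amh had 0.662 FPKM, and Foxl2, Cyp19a1 and Fshr were at 0. Their sums were 2.14 to 2.77 FPKM in control and 2.49 to 2.68 FPKM with metformin. Of 9 fibroblast markers, relevant to the feeder cells, 0 reached 1 FPKM, with Acta2 at 0.625, Dcn at 0.27 and Lum at 0 FPKM, and sums of 1.00 to 1.37 FPKM in control and 0.84 to 1.62 FPKM with metformin. The part of these other cell types in the granule gene values was not tested.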

How the data were processed

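The authors deposited FPKM values, normalized for gene length and depth, with 1 column per library. The submitters' processing notes name HISAT2, DESeq2 and mm9, but gene positions in the table are those of GRCm38. The labels name a stranded kit and the study's methods another, and the counting tool, annotation version and use of strand are not given in the sources used here. Depth was estimated from the step that 1 fragment makes in the FPKM of single-exon genes under 400 bp. Limits for a count of 0 use 3 fragments and GENCODE M1 exon lengths. For Hdc the estimates above 0 were 1.76, 1.79 and 2.68 fragments, from FPKM given to 2 decimals, which is too coarse to return whole fragments. For Mcpt8 estimates such as 9.39 in control replicate 1 and 8.50 in metformin replicate 1 were not whole either, beyond what rounding allows. Whether the deposited FPKM used the same exon lengths is not known, so the fragment numbers and limits for a count of 0 are approximate.

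Values were tested as log2(FPKM + 1), with a pseudocount of 1, for genes averaging 1 FPKM or more, using limma 3.58.1 (R 4.3.3) with a trend, two-sided, Benjamini-Hochberg adjustment over all 10661 genes and a threshold of 0.05. Fold changes on this scale understate those of low genes. Genes below the filter were compared by exact permutation. The same exact test was also run for Cpa3 (p = 0.1), Srgn (p = 0.6) and Gzmb (p = 0.2). The fit was tested on simulated data. The members and lists were chosen with earlier results of these data known. Genes named were the 10 members, and from each wider list the 4 highest, any that passed and the smallest p, and from each marker list the 2 highest and those at 0. Others are named where a count of 5 or fewer, or a group of non-overlapping genes, includes them, after their values were seen. Symbols were matched by Ensembl identifier, 3 of them under an older symbol, and Vamp7 was not matched. For the megakaryocyte markers, 1 gene and the summed level are not reported here. Alternatives were other pseudocounts, filters, scalings, no trend, a replicate block and each library left out. Promoters came from RefSeq (GRCm38.p6). Figures used matplotlib 3.10.9.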

Additional observations from a re-analysis of the deposited data

How the results depend on the processing

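Over 14 alternative fits no granule gene passed the adjusted threshold, and 0 genes of the wider lists did. The log2 fold change of Cpa3 stayed between -0.14 and -0.08 (limma adjusted p 0.240 to 0.621), that of Srgn between -0.08 and -0.00025 (0.614 to 0.998) and that of Gzmb between -0.20 and -0.09 (0.335 to 0.693). With no filter on low values 7 genes passed in place of 3 (4 in the higher and 3 in the lower direction), and 1 lower gene passed without control replicate 3 or without metformin replicate 3. The number of granule genes whose groups did not overlap ranged from 1 to 2 with single libraries left out, and was 2 without control replicate 3 and without metformin replicate 1, when Gzmb joined Cpa3. In those comparisons the groups did not overlap for 27.2% and 27.3% of all tested genes, against 17.0% with all 6 libraries. With a limit of 0.1 FPKM, and with a limit of 1 on the TPM scale, 4 granule genes counted as expressed in place of 3, since Mcpt8 joined. Values are larger in TPM here (Mcpt8 had a control mean of 2.44 TPM and 0.777 FPKM), so 1 TPM is itself a lower limit than 1 FPKM. With the replicate block, 2 genes and 0 granule genes passed, and Cpa3 had an adjusted p of 0.486. Deviations of same-numbered libraries from their group means correlated at -0.032, 0.018 and 0.048, and not every library correlated best with its own number. With group means of only 3 libraries, these values cannot tell whether the numbers pair libraries by design. Depth limits Mcpt8, Cma1 and Hdc, which rest on an estimated 13 fragments or fewer per library.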
